A study of Bos taurus with 24 samples.

Results

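The mitochondrial ribosomal protein genes are the nuclear genes whose symbols start with MRPL or MRPS followed by a digit, and 76 of the 24621 gene rows of the count table met that rule. They stand for 75 symbols, since MRPL33 is listed in 2 rows, and all 76 rows matched a protein-coding RefSeq gene by symbol. By the structure of the mammalian mitochondrial ribosome, 50 rows encode proteins of the large subunit and 25 rows proteins of the small subunit. MRPS18A and MRPS30, which sit in the large subunit despite their names, were counted there. MRPS36 carries the name of a small subunit protein but is now known as a component of the alpha-ketoglutarate dehydrogenase complex, and was kept apart.

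RNA was sequenced from 24 single bovine early blastocysts of quality score 1, and each embryo is one replicate. In vivo derived embryos (5 males and 3 females) were flushed from 3 superovulated Holstein cows. The other embryos came from slaughterhouse ovaries of Holstein cows and were sired by the same Holstein bull. They were matured and cultured in vitro, either in serum-containing medium (3 males and 5 females) or in serum-free medium (5 males and 3 females). Per the study's methods, in vivo derived embryos were flushed on a fixed day after insemination, and cultured embryos were harvested on that day or the day before. The labels give no donor, culture run, day of harvest or sequencing lane for an embryo, so values within such batches cannot be given.

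Mitochondrial ribosomes translate the few messenger RNAs of the mitochondrial genome, which encode core subunits of the respiratory chain and of ATP synthase. Their RNA is made inside the organelle, but every one of their proteins is encoded in the nucleus, made on cytosolic ribosomes and imported. Part of these proteins descend from bacterial ribosomal proteins, and the others were added to the ribosome during the evolution of mitochondria. In the early embryo, mitochondria are inherited from the oocyte and the demand for respiration grows as the blastocyst forms.

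Exon counts per embryo ranged from 3253051 to 9000447. Only genes that reached 15 counts in each embryo of one compared group or the other were tested, and 75 of the 76 rows passed that limit in at least 1 culture group. The exception was MRPL36, with 0 to 39 counts and a single embryo at 0, which was tested in no comparison of pooled culture groups. Both MRPL33 rows were thin as well, with 11 to 47 counts in one and 12 to 36 counts in the other. Whether reads were lost because only unique matches were counted was not tested. Levels below are edgeR's CPM values, which are counts scaled to a common library size after TMM normalization, and they are compared between embryos but not between genes, because gene lengths were not used here.

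Part of the serum embryos stood apart from the others in genes detected. Genes with at least 1 count numbered between 13136 and 14381 in in vivo derived embryos and between 11735 and 14732 in serum embryos, and the 4 lowest values (11735 to 12390) belonged to the serum males B1, B5 and B7 and the serum female B2, while the other 4 serum embryos had 13559 to 14732. The summed CPM of 8 trophectoderm markers, most of it from KRT8, was 7520 to 14700 in vivo, 324 to 5130 in serum and 4980 to 28300 in serum-free medium. Of the 7 tested between in vivo derived and serum embryos, 5 were lower in serum (KRT8, KRT18, GATA2, GATA3 and IFNT), and TEAD4 (log2, serum over in vivo, 0.71, adjusted p = 0.10) and TFAP2C (0.32, adjusted p = 0.29) did not pass. CDX2, a defining trophectoderm gene, had at most 11 counts in any embryo. Inner cell mass markers summed to 225 to 299, 201 to 369 and 142 to 427 CPM in the same order. Hypoblast markers summed to 342 to 589, 27.5 to 231 and 128 to 393 CPM, with SOX17 and FOXA2 at 0 to 2 counts. Most of the in vivo hypoblast sum came from PDGFRA, with 1329 to 2880 counts in vivo and 88 to 1139 in serum. GATA6 overlapped, with 58 to 121 counts in vivo and 26 to 154 in serum. Of the inner cell mass genes tested against serum, SOX2 was higher in serum (log2 1.25, adjusted p = 0.027), and POU5F1 (-0.55, adjusted p = 0.098) and SALL4 (0.67, adjusted p = 0.11) did not pass. Cumulus markers summed to at most 35.9 CPM, and 5 of the 7 stayed under 15 counts, with PTX3 at 0 in all 24 embryos. CYP19A1 was detected in every embryo, with 18 to 154 counts in vivo, 2 to 145 in serum and 10 to 96 in serum-free medium. HAS2 had at most 23, 125 and 133 counts in the same order. These values move with culture, and their part in the results was not tested; in whole embryos, fewer cells of a type and less RNA per cell cannot be told apart.

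The comparison of in vivo derived embryos with serum embryos asks whether messenger RNA levels of the members differ between these groups. The groups also differ in oocyte source, in maturation and fertilization in vitro and in the days of collection, so an effect of serum cannot be told apart from these. Of 75 members tested, 15 passed an adjusted p of 0.05 in edgeR's quasi-likelihood test, adjusted by Benjamini-Hochberg over the genes tested, which is 20.0% of them against 28.3% of the 7339 genes tested. Of those, 14 were higher in serum and 1, MRPL49, was higher in vivo, while over all genes both directions were near balance (14.8% higher in serum and 13.4% higher in vivo). No member reached a 2-fold change as well, compared with 13.8% of all genes, and neither the exact test of edgeR nor DESeq2 placed a member past both limits. At an unadjusted p under 0.05 there were 26 members, 21 of them higher in serum (34.7% against 41.2% of all genes). The fitted level was higher in serum for 54 of 75 members (72.0%, against 50.9% of all genes tested), with a median log2 fold change, serum over in vivo, of 0.19 against 0.015 over all genes. Both MRPL33 rows and MRPS2, all fitted higher in serum, met the count limit only in serum embryos (lowest counts in vivo 11, 12 and 11). For them the limit favoured that direction. MRPL40 met it only in vivo (lowest count in serum 12) and was also fitted higher in serum.

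**Figure D1:**
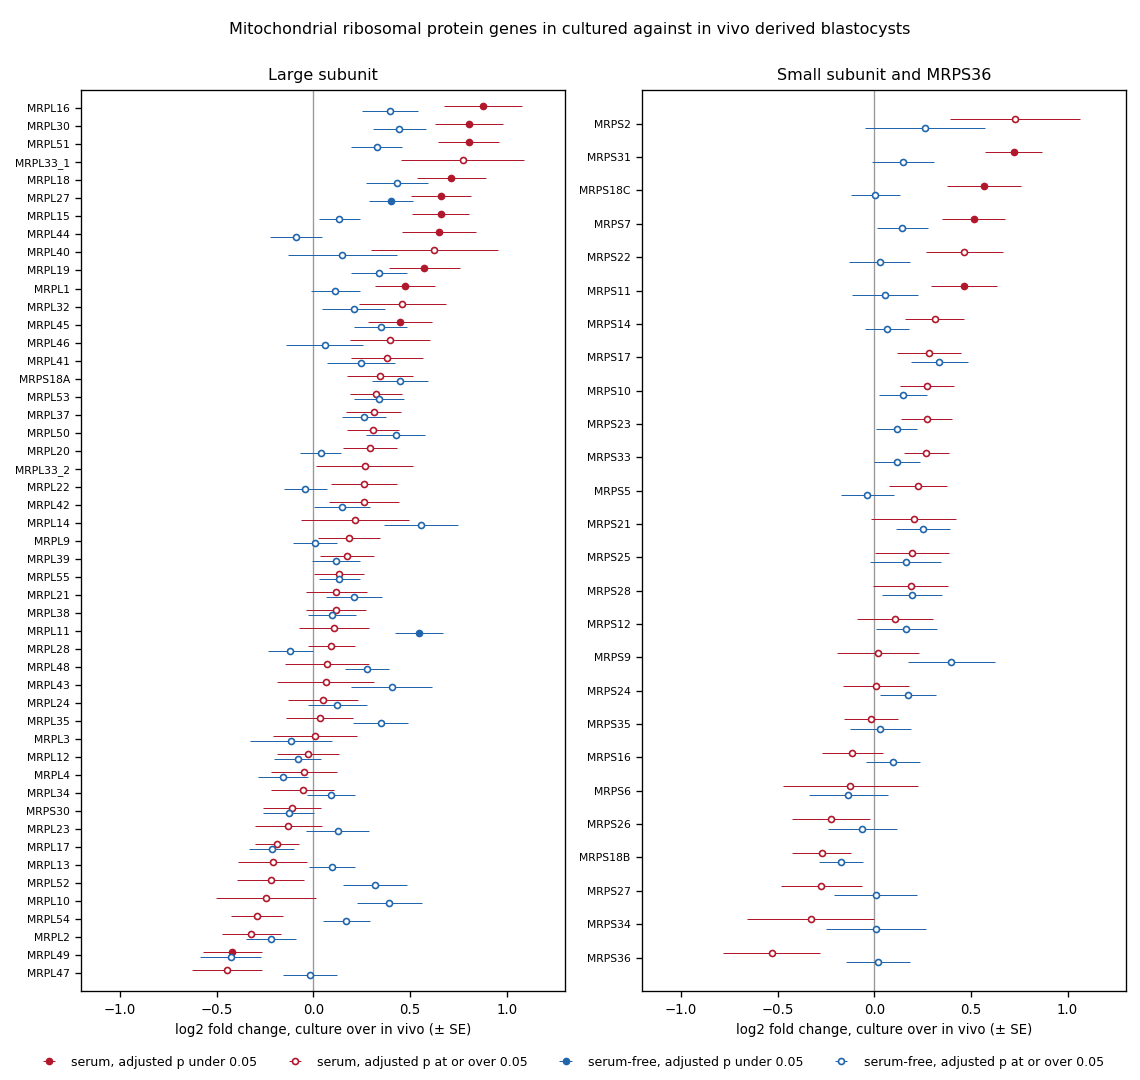
Log2 fold change of each member tested, serum (red) and serum-free medium (blue) over in vivo, with approximate standard errors, for the large subunit (left) and for the small subunit with MRPS36 (right); filled points passed an adjusted p of 0.05. Most red points lie to the right of 0, MRPL49 is the only filled point on the left, and the 2 filled blue points are MRPL11 and MRPL27.

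In the large subunit 11 of 49 tested members passed, 10 of them higher in serum, and the median log2 fold change, serum over in vivo, was 0.18. In the small subunit 4 of 25 passed, all higher in serum, with a median of 0.20. Members with a bacterial counterpart (10 of 45 passed, median 0.19) and members specific to mitochondria (5 of 29 passed, median 0.26) had similar shares, and the difference between these classes was not tested. Within the large subunit the mitochondria-specific members had a median of 0.31 and those with a bacterial counterpart a median of 0.13, and within the small subunit the order was the other way, 0.09 and 0.23.

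MRPL51 and MRPS31, both specific to the mitochondrial ribosome, were the members whose in vivo and serum values did not overlap (2 of 75, against 7.11% of all genes tested). MRPL51, of the large subunit, measured 112 to 188 CPM (median 144.5) in vivo, 197 to 395 CPM (median 256) in serum and 145 to 270.3 CPM (median 179) in serum-free medium. Every serum embryo was above every in vivo derived embryo, and the highest was the female B2. The log2 fold change, serum over in vivo, was 0.80 ± 0.16 (SE, n = 8 and 8, adjusted p = 0.0014), a 1.75-fold difference. MRPS31, a protein of the small subunit head, measured 73.4 to 113 CPM (median 102) in vivo, 121 to 211 CPM (median 154) in serum and 69.8 to 144.5 CPM (median 115) in serum-free medium. Its log2 fold change, serum over in vivo, was 0.72 ± 0.15 (SE, adjusted p = 0.0021). The serum-free embryos overlapped both of the other groups.

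Several of the other members that passed were large subunit proteins shared with bacteria, a class of 31 of the 76 rows. MRPL16, whose bacterial counterpart lies close to the peptidyl transferase centre, had the greatest fitted difference among members that passed, with 57.8 to 91.6 CPM (median 74.7) in vivo and 89.0 to 216 CPM (median 114) in serum. This was a 1.84-fold difference (log2 0.88 ± 0.20 SE, adjusted p = 0.0043). The groups touched, since the serum females B4 and B6 were below the highest in vivo derived embryo, and B2 (216 CPM) and B7 (201 CPM) were highest. MRPL30 ranged over 62.4 to 96.0 CPM (median 70.2) in vivo and 91.6 to 173.5 CPM (median 127) in serum, and its log2 fold change was 0.80 ± 0.18 (SE, adjusted p = 0.0031). All 8 serum embryos were above the in vivo median for both genes.

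MRPL15, a protein of the large subunit core and the member with the most counts, measured 224 to 309 CPM (median 258) in vivo and 305.5 to 585 CPM (median 386.5) in serum. Its log2 fold change was 0.66 ± 0.15 (SE, adjusted p = 0.0033), and the groups overlapped by 1 serum embryo, B8. MRPL27, whose bacterial counterpart reaches into the peptidyl transferase centre, measured 82.25 to 111 CPM (median 100.2) in vivo and 108 to 211 CPM (median 141) in serum, with a log2 fold change of 0.66 ± 0.15 (SE, adjusted p = 0.0043). The 3 serum males had the 3 highest MRPL27 values of all 24 embryos, 190.4 to 211 CPM. MRPL18, of the family that binds 5S ribosomal RNA in bacteria, rose from a range of 82.0 to 154 CPM (median 99.0) to 118 to 226 CPM (median 178), with log2 0.71 ± 0.18 (SE, adjusted p = 0.0064). MRPL19 rose less, from a median of 84.3 CPM (62.8 to 107) to 127 CPM (71.0 to 181), and 7 of 8 serum embryos were above its in vivo median (log2 0.57 ± 0.18 SE, adjusted p = 0.024).

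MRPL44, a large subunit protein with a ribonuclease III-like fold, measured 94.3 to 185 CPM (median 113) in vivo and 134 to 299 CPM (median 180.5) in serum, where the female B3 and the male B7 were highest. The log2 fold change was 0.65 ± 0.19 (SE, adjusted p = 0.016). In the small subunit, MRPS7, a head protein that contacts ribosomal RNA, measured 96.0 to 129.6 CPM (median 117) in vivo and 127 to 253 CPM (median 138) in serum (log2 0.51 ± 0.16 SE, adjusted p = 0.026), and MRPS18C, 1 of 3 bovine paralogs of the bacterial S18 protein in the list, measured 81.1 to 131 CPM (median 95.9) and 87.9 to 218 CPM (median 133; log2 0.57 ± 0.19 SE, adjusted p = 0.031). MRPS18C overlapped widely between the groups, while for MRPS7 the serum females B4, B6 and B8 were within the in vivo range, at its upper end. The remaining 3 members that were higher in serum, named after their values were seen, were MRPL1 of the L1 stalk (log2 0.48, adjusted p = 0.028), MRPL45, related to the import protein TIMM44 (log2 0.45, adjusted p = 0.049), and MRPS11 of the small subunit platform (log2 0.46, adjusted p = 0.049). When each embryo was left out in turn, MRPS18C passed in 13 of 16 fits, MRPS11 in 7 and MRPL45 in 5, and the other 11 members that were higher in serum passed in all 16.

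MRPL49 ran against the others. It measured 123 to 189 CPM (median 144) in vivo, 72.2 to 137 CPM (median 109.9) in serum and 71.2 to 168 CPM (median 107) in serum-free medium. The in vivo and serum ranges overlapped, although no serum embryo was above the in vivo median. The log2 fold change, serum over in vivo, was -0.42 ± 0.15 (SE, adjusted p = 0.044), and it passed in 3 of 16 fits that each left out 1 embryo (adjusted p = 0.031 to 0.12). MRPL47 had a difference of the same size in the same direction (log2 -0.45 ± 0.18 SE) that did not pass, with an adjusted p of 0.071. It is named here after its values were seen.

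**Figure D2:**
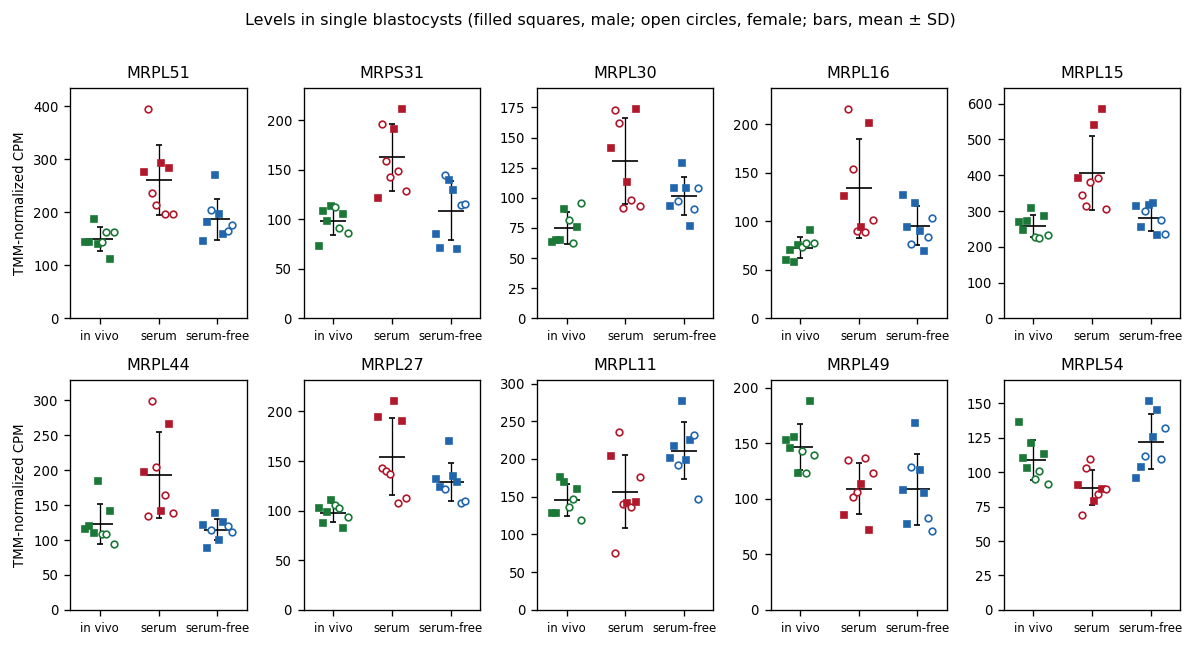
TMM-normalized CPM of 10 members in each of the 24 embryos by culture; filled squares are males, open circles females, and bars give the mean ± SD of 8 embryos. MRPL51 and MRPS31 show no overlap between in vivo derived and serum embryos, MRPL11 and MRPL27 are higher in serum-free embryos than in vivo, and MRPL49 is lower in serum.

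The comparison of in vivo derived and serum embryos was repeated without the 4 serum embryos with the fewest genes detected. The smaller group, the loss of all serum males and the number of genes detected cannot be told apart here. Without B1, B2, B5 and B7, a setting added after the data were seen that leaves only 4 female serum embryos, 8 members passed where 20.8% of all genes did. Of these, 6 were higher in serum (MRPL15, MRPL16, MRPL30, MRPL44, MRPL51 and MRPS31), and 2 were higher in vivo, MRPL47 and MRPS18B, the latter named only for this count. The log2 fold change of MRPL51 fell to 0.50 (adjusted p = 0.016) and that of MRPS31 to 0.56 (adjusted p = 0.0094), while MRPL44 was at 0.715 (adjusted p = 0.018). The other 9 members that had passed did not pass without these embryos, among them MRPL27 (adjusted p = 0.07), MRPL49 (0.13) and MRPS11 (0.35). The median over members became 0.15, serum over in vivo. With sex as a covariate over all 16 embryos, 18 members passed, 17 of them higher in serum, where 28.5% of all genes passed, and the median was 0.23.

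Serum-free medium was compared with in vivo derivation in the same way, with the same in vivo embryos on one side. Of 73 members tested, 2 passed, MRPL11 and MRPL27, both higher in serum-free medium (2.74%, against 5.82% of the 7314 genes tested, or 3.38% in that direction). For no member were the 2 groups free of overlap, compared with 0.889% of all genes. Again no member reached 2-fold as well by edgeR's quasi-likelihood test, its exact test or DESeq2, compared with 2.2% of all genes, and 18 members had an unadjusted p under 0.05, of which 17 were higher in serum-free medium (21.5% of all genes did). The fitted level was higher in serum-free medium for 58 of 73 members (79.5%, against 50.3% of all genes), with a median log2 fold change, serum-free over in vivo, of 0.13 against 0.003. MRPS2, fitted higher in serum-free medium, met the count limit only there (lowest counts 15, and 11 in vivo). Small subunit members were nearly all on that side, 21 of 25, but none passed and 1 had an unadjusted p under 0.05.

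MRPL11, at the base of the stalk where translation factors act, measured 119 to 176 CPM (median 142) in vivo, 76.0 to 236 CPM (median 142) in serum and 148 to 277 CPM (median 209) in serum-free medium. All 8 serum-free embryos were above the in vivo median, with 1 of them, the female C10, far below the other 7. The log2 fold change, serum-free over in vivo, was 0.54 ± 0.13 (SE, adjusted p = 0.015), whereas serum over in vivo was 0.11 (adjusted p = 0.69). MRPL27 measured 108 to 170.0 CPM (median 126) in serum-free medium, and its log2 fold change over in vivo was 0.40 ± 0.11 (SE, adjusted p = 0.041). It was the member past the test against in vivo in both media, and in the serum-free comparison it passed in 5 of 16 fits that left out 1 embryo (adjusted p = 0.034 to 0.079), whereas MRPL11 passed in all 16. MRPL30 came next, with a log2 fold change of 0.44 ± 0.14 (SE, adjusted p = 0.061). Values of the leading serum members in serum-free medium over in vivo were log2 0.33 for MRPL51 (adjusted p = 0.15), 0.15 for MRPS31 (adjusted p = 0.64), 0.13 for MRPL15 (adjusted p = 0.50) and -0.09 for MRPL44 (adjusted p = 0.75). They were larger for MRPL16 (0.40, adjusted p = 0.12), MRPL18 (0.43, adjusted p = 0.11) and MRPL19 (0.34, adjusted p = 0.17). For MRPS7 the value was 0.15 (adjusted p = 0.57). MRPL49 had -0.43 in this comparison, of the same size as in serum, with an adjusted p of 0.11.

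The 2 media were also compared directly. Of 74 members, 5 passed (6.76%, against 16.3% of the 7181 genes tested), and none reached 2-fold as well by edgeR's quasi-likelihood test, its exact test or DESeq2, compared with 8.91% of all genes. An unadjusted p under 0.05 was found for 13 members (33.1% of all genes), and the 2 groups overlapped for every member, while 2.4% of all genes showed no overlap. MRPL44, MRPL15, MRPS31 and MRPS18C were higher in serum, and MRPL54 was higher in serum-free medium (8.29% and 8.02% of all genes passed in these directions). MRPL44 differed most, with 89.0 to 139 CPM (median 117) in serum-free medium and a log2 fold change, serum over serum-free, of 0.74 ± 0.18 (SE, adjusted p = 0.014). For MRPL15, MRPS31 and MRPS18C the values were 0.52 (adjusted p = 0.029), 0.57 (adjusted p = 0.043) and 0.56 (adjusted p = 0.049). MRPL54, a large subunit protein without a bacterial counterpart, measured 91.7 to 136.5 CPM (median 107) in vivo, 69.1 to 109 CPM (median 87.65) in serum and 96.1 to 152 CPM (median 119) in serum-free medium, and it was lower in serum than in serum-free medium by log2 -0.46 ± 0.15 (SE, adjusted p = 0.039). Leaving out 1 embryo at a time, MRPL44 passed in all 16 fits, MRPL15 in 14 (not without C10 or B7), MRPS31 in 7, MRPS18C in 5 and MRPL54 in 3. Over all members there was little net shift between the media: 41 of 74 were fitted higher in serum (55.4%, against 51.3% of all genes), with a median of 0.02. Without the 4 serum embryos with the fewest genes detected, MRPL44 alone passed (log2 0.80, adjusted p = 0.036).

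The sexes were examined separately because the groups held unequal numbers of males and females. Between male in vivo derived and male serum embryos 13 of 75 members passed, 12 of them higher in serum (17.3%, against 19.0% of all genes tested, 9.19% higher in serum and 9.77% higher in vivo), and the exception was MRPL49. An unadjusted p under 0.05 was found for 23 members (34.1% of all genes). The median log2 fold change of the members, serum over in vivo, was 0.28. In edgeR's quasi-likelihood test 1 member, MRPL27, passed at more than 2-fold (log2 1.04 ± 0.18 SE, adjusted p = 0.003), compared with 13.3% of all genes. MRPL30 crossed 2-fold narrowly by DESeq2 and with DESeq2 size factors in edgeR (log2 1.00 in both, adjusted p = 0.00033 and 0.0085). MRPL15 (0.87), MRPL51 (0.96), MRPL30 (0.99) and MRPL18 (0.87) followed, with adjusted p-values between 0.005 and 0.011. This count rests on 3 serum males, all among the embryos with few genes detected, and it fell to 4 without the serum male B7.

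In females no member passed against serum by edgeR's quasi-likelihood test or its exact test, where 0.418% of all genes did. DESeq2 placed 1, MRPL15, past the limit, and 13 members had an unadjusted p under 0.05, 12 of them higher in serum (21.1% of all genes did). The median log2 fold change in females was 0.21, and 56 of 75 members were fitted higher in serum in each sex (50.4% of all genes in males and 51.9% in females). MRPL15 had a log2 fold change of 0.63 ± 0.18 (SE, adjusted p = 0.12) in females. The interaction of sex and culture, which tests the difference between the sexes itself, passed for no member in edgeR's quasi-likelihood test or DESeq2 (0.0% of all genes), with 3 of 75 members at an unadjusted p under 0.05 (5.16% of all genes) and a smallest adjusted p of 0.77, that of MRPL27.

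Against serum-free medium no member passed in males or in females by the quasi-likelihood test, where 1.76% and 0.304% of all genes did. An unadjusted p under 0.05 was found for 13 of 73 members in males (18.0% of all genes), all higher in serum-free medium, and for 9 of 75 in females (14.0% of all genes), 8 of them higher in serum-free medium. The fitted level was higher in serum-free medium for 55 of 73 members in males (51.7% of all genes) and for 51 of 75 in females (50.9% of all genes). The exact test and DESeq2 each placed MRPL11 and MRPL27 past the limit in males and no member in females. The median log2 fold change, serum-free over in vivo, was 0.16 in males and 0.14 in females, and the interaction passed for no member by edgeR or DESeq2 (0.0% of all genes), with 4 of 75 members at an unadjusted p under 0.05 (6.59% of all genes) and a smallest adjusted p of 0.70, that of MRPL3, named after its values were seen.

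Male and female embryos were then compared within each culture condition. No member passed in any of the 3 comparisons by edgeR's quasi-likelihood or exact test, where 1.26%, 0.173% and 0.152% of all genes passed in vivo, in serum and in serum-free medium, and DESeq2 placed 1 member, MRPL45, past the limit in vivo. At an unadjusted p under 0.05 there were 10, 4 and 7 members (13.5%, 6.24% and 8.01% of all genes). All 10 in vivo and all 4 in serum were higher in males, as were 5 of the 7 in serum-free medium. More members were fitted higher in males than in females in vivo (50 of 74), in serum (59 of 75) and in serum-free medium (58 of 75), where 50.7%, 49.8% and 52.1% of all genes were, with medians, male over female, of 0.10, 0.20 and 0.13 on the log2 scale. Over all genes tested the medians were 0.006, -0.001 and 0.02.

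The members were also summed in each embryo. The summed CPM was 7303 to 8670 (median 7595) in vivo, 7901 to 10870 (median 8712) in serum and 7470 to 10410 (median 8446) in serum-free medium. The group means differed by 1.15-fold for serum over in vivo and 1.08-fold for serum-free medium over in vivo, and both cultured groups overlapped the in vivo derived embryos. The highest sums were those of the serum males B1 and B7 and the serum-free male C4. Among in vivo derived embryos the 5 males (7493 to 8670) lay above the 3 females (7303 to 7458), and in serum the 3 males averaged 10017 ± 1038 against 8405 ± 383 in the 5 females (SD). The serum sexes overlapped, since the male B5 (8862) lay below the female B3 (8941). All 3 serum males were among the embryos with few genes detected, so sex and genes detected cannot be told apart there. As a share of raw exon counts the members made up 0.708 to 0.839% in vivo, 0.791 to 1.08% in serum and 0.713 to 1.04% in serum-free medium.

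**Figure D3:**
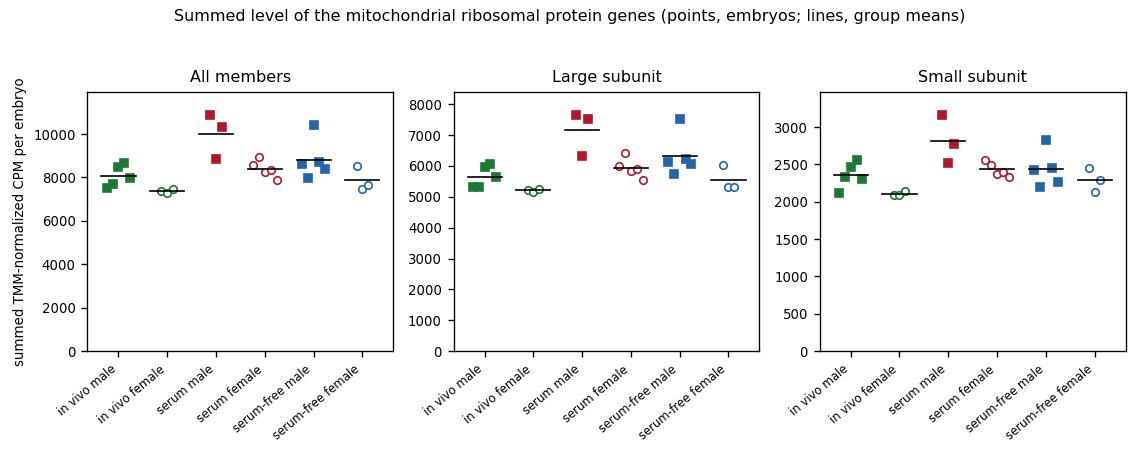
Summed TMM-normalized CPM per embryo for all members, the large subunit and the small subunit, by culture and sex; each point is 1 embryo and each line a group mean. The 3 in vivo females lie together at the bottom, and the serum males B1 and B7 and the serum-free male C4 lie highest in the left panel.

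The balance of the subunits was followed in the same way. The summed CPM of the large subunit divided by that of the small subunit was 2.28 to 2.50 (median 2.45) in vivo, 2.34 to 2.71 (median 2.46) in serum and 2.32 to 2.68 (median 2.53) in serum-free medium, with overlap between all 3 groups. Since the CPM of a gene also depends on its length, these ratios can be compared between embryos and are not ratios of proteins.

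The nuclear genes of oxidative phosphorylation encode subunits of protein complexes that, complex II aside, also contain products of mitochondrial ribosomes. Set against these genes, the members had a median of the opposite sign in serum, and the difference between the lists was not tested. Of 81 such genes tested, 21 passed between in vivo derived and serum embryos (25.9%, against 28.3% of all genes tested). Of those 21, 19 were lower in serum, a direction in which 13.4% of all genes passed. The median log2 fold change of the 81 genes, serum over in vivo, was -0.27. NDUFS1, SDHA and ATP5F1, subunits of complexes I, II and V, were 0.76, 0.83 and 0.46 lower on the log2 scale (adjusted p = 0.0024, 0.0028 and 0.0054). The sum of the members divided by the sum of these genes was 0.251 to 0.265 (median 0.26) in vivo, 0.303 to 0.482 (median 0.353) in serum and 0.264 to 0.297 (median 0.294) in serum-free medium. Every serum embryo was above every other embryo, and the in vivo derived embryos spanned a narrow band that the serum-free embryos touched only with C7. The 4 serum embryos with more genes detected lay between 0.331 and 0.357, and the highest ratio was that of B2. No test was made of the ratio, because it is a score over genes chosen with earlier results of these data known.

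**Figure D4:**
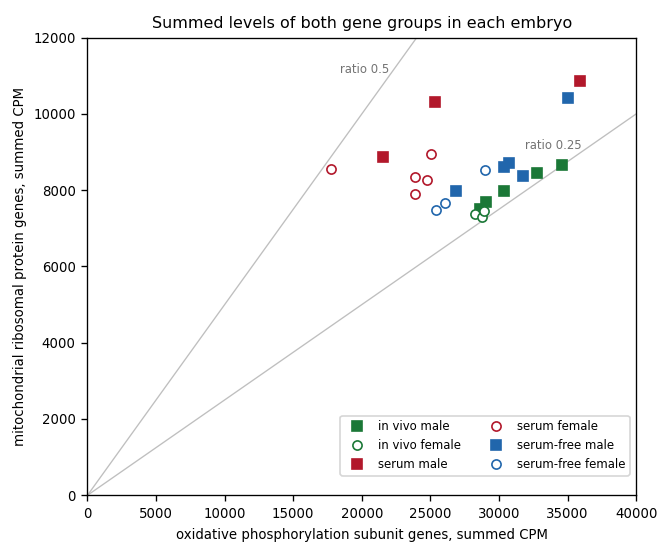
Summed CPM of the mitochondrial ribosomal protein genes against summed CPM of the nuclear oxidative phosphorylation genes in each embryo, with grey lines at ratios of 0.25 and 0.5. In vivo derived embryos (green) lie just above the lower line, and serum-free embryos (blue) mostly slightly farther above it. Serum embryos (red) lie farthest above that line, most of them to the left, but the serum male B1 is the farthest right. The oxidative phosphorylation sums overlapped between in vivo derived (28249 to 34578 CPM) and serum embryos (17764 to 35875 CPM).

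Cytosolic ribosomal proteins are the counterpart of the members outside the organelle. Of 85 tested, 10 passed between in vivo derived and serum embryos (11.8%, against 28.3% of all genes tested). Of these, 7 were higher in serum, and the median over the list was 0.08. Their summed CPM was 53776 to 70214 in vivo, 51101 to 87046 in serum and 52439 to 82462 in serum-free medium, and the member sum divided by it was 0.109 to 0.147, 0.125 to 0.156 and 0.103 to 0.163, with overlap throughout. Where cytosolic ribosomal protein rows are copies of one another their unique counts are uncertain, and the rows were not checked for this.

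The spread between embryos was described next. The standard deviation of log2(CPM + 1) within culture groups had a median of 0.30 over the 75 members tested and of 0.53 over the 7557 genes that passed the limit in at least 1 culture group. By culture the member median was 0.23 in vivo, 0.36 in serum and 0.27 in serum-free medium, against 0.37, 0.61 and 0.46 over all those genes, without matching for the number of counts. MRPL17 (0.16), MRPS33 (0.18), MRPL28 (0.18), MRPL55 (0.19) and MRPS23 (0.20) varied least, and MRPL17 ranged only over 120.3 to 144 CPM in serum.

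MRPS6 (0.70), MRPS34 (0.64), MRPL14 (0.60), MRPS2 (0.56) and MRPL10 (0.54) varied most, and for each of them the standard deviation was largest in serum embryos. MRPS2, with only 11 to 69 counts, varied in every culture (0.48 in vivo, 0.65 in serum and 0.53 in serum-free medium). MRPS6 measured 26.5 to 45.4 CPM (median 37.5) in vivo but 7.68 to 58.6 CPM (median 38.2) in serum, where B7 (7.68 CPM) and B2 (7.84 CPM) were far below the rest. MRPL14, with 31.5 to 53.0 CPM in vivo, ranged over 10.2 to 86.8 CPM in serum, and MRPL10, with 73.5 to 118 CPM in vivo, over 24.9 to 123 CPM. The serum female B2 had the lowest value of all 24 embryos for MRPL10, MRPL14 and MRPS34, and the highest for MRPL51 and MRPL16. In the comparison of in vivo derived and serum embryos, these 5 variable members had adjusted p-values of 0.11 to 0.82. The lowest was that of MRPS2 (log2, serum over in vivo, 0.73), which passed when counts were thinned to the smallest total (0.81, adjusted p = 0.048). MRPS2 entered this comparison only through serum embryos, the group where it was higher (lowest counts 11 in vivo and 30 in serum).

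After the culture means were removed, the members were correlated loosely across the 24 embryos. The median pairwise Spearman correlation was 0.17 over the members, 0.19 within the large subunit, 0.13 within the small subunit and 0.17 between the subunits. It was 0.60 among cytosolic ribosomal proteins, 0.29 among oxidative phosphorylation genes and 0.002 among all genes that passed the limit, and the libraries and their scaling are shared by all points. MRPL24 (0.74), MRPL44 (0.73), MRPL46 (0.72) and MRPL21 (0.72) followed the mean of the other members most closely, while MRPL19 (-0.20) and MRPL17 (-0.13) did not follow it; these were named after their values were seen.

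Other parts of the mitochondrial translation machinery gave mixed directions in the comparison of in vivo derived and serum embryos, in which 28.3% of all genes passed. None of 6 further ribosomal proteins whose symbols fall outside the rule, such as DAP3, PTCD3 and ICT1, passed the quasi-likelihood test (1 at an unadjusted p under 0.05), and their median was -0.02. Of 12 translation factors, the release factor homolog C12orf65 alone passed, higher in serum (log2 0.59 ± 0.19 SE, adjusted p = 0.023). Assembly and ribosomal RNA modification factors had 4 of 26 past the limit, 2 in each direction: the pseudouridine synthase-like RPUSD3 (-0.80) and the methyltransferase FTSJ2 (-0.76) were lower in serum, and FASTKD2 (1.02) and WBSCR16 (1.11) were higher. Among aminoacyl-tRNA synthetases of mitochondria 3 of 13 passed, with IARS2 (-1.65) and FARS2 (-0.92) lower in serum and HARS2 (0.75) higher.

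Genes that express mitochondrial DNA had 4 of 15 past the limit (26.7%, near the 28.3% of all genes), all 4 higher in serum. These were the transfer RNA processing enzymes ELAC2 (log2 1.31 ± 0.31 SE, adjusted p = 0.0053) and TRMT10C (0.45, adjusted p = 0.039), the transcription factor TFB2M (0.74, adjusted p = 0.0074) and the RNA-degrading enzyme PNPT1 (0.76, adjusted p = 0.024). Of 24 genes of protein import 7 passed, also near that share of all genes. The translocase genes TIMM23 (0.75, adjusted p = 0.00071), TIMM22 (1.01, adjusted p = 0.0039), TOMM5 (0.65, adjusted p = 0.0051) and TIMM17A (0.65, adjusted p = 0.007), and also TOMM22, were higher in serum, whereas PMPCA and PMPCB, the subunits of the processing peptidase that removes import signals, were lower.

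Among 7 tested regulators of nuclear genes for mitochondrial proteins, 2 passed in serum, in opposite directions, a share near the 28.3% of all genes. GABPA, a transcription factor known to bind promoters of such genes, measured 85.7 ± 10.5 CPM in vivo, 227 ± 124 CPM in serum and 115 ± 14.1 CPM in serum-free medium (SD, n = 8 each). Its log2 fold change over in vivo was 1.41 ± 0.26 (SE, adjusted p = 0.00087) in serum and 0.43 ± 0.12 (SE, adjusted p = 0.036) in serum-free medium. PPARGC1A, a coactivator of mitochondrial biogenesis, was lower in serum, with 14.4 ± 7.52 CPM in vivo and 4.54 ± 3.47 CPM in serum (log2 -1.64 ± 0.49 SE, adjusted p = 0.018), and did not pass in serum-free medium (17.0 ± 12.3 CPM, adjusted p = 0.76). NRF1 and PPRC1 had log2 fold changes of 0.82 and 0.54 in serum with adjusted p-values of 0.069 and 0.068.

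In serum-free medium these lists showed few changes relative to in vivo. The assembly factor NGRN was lower (log2 -0.51 ± 0.14 SE, adjusted p = 0.033) and GABPA higher, and no translation factor, gene of mitochondrial DNA expression, synthetase or import gene passed the quasi-likelihood test, with 2, 2, 1 and 5 of them at an unadjusted p under 0.05. Oxidative phosphorylation genes had 5 of 81 past the limit (6.17%, against 5.82% of all genes tested), 3 of them lower in serum-free medium, with a median of 0.07.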

How the data were processed

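Single bovine early blastocysts were sequenced without pooling. Per the study's methods, reads were trimmed (12 nucleotides from the 5′ end) and mapped to the UMD 3.1 bovine genome, and the authors deposited raw counts per gene and embryo of fragments with a unique exon match, from libraries that do not mark strand. All 24 value columns were matched to an embryo by name. Exon counts per embryo were 3253051 to 9000447. The labels do not give lane, donor cow, culture batch or day of harvest of an embryo, so none was modelled.

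Counts were tested with edgeR 4.0.16 in R 4.3.3 (TMM, quasi-likelihood test) on the whole table, in fits of the groups compared. Testing required at least 15 counts in each embryo of one group or the other, and p-values were adjusted by Benjamini-Hochberg over all genes tested. A gene passed with an adjusted p under 0.05, and was counted as called when its fold was also at least 2. Standard errors are approximate, computed from the fold change and its F statistic. The test was tried on simulated counts with known changes. Ratios and sums over members are descriptions, with no test.

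Members and gene lists were chosen with earlier results of these data known. Named members were those called, those with the smallest p in each pooled comparison (up to 10 a direction) or within a sex (up to 5), those without overlap, those not tested, and the 5 most and least variable; for other lists up to 4 a comparison. Others are marked as named after their values were seen.

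Same-numbered embryos of different groups did not deviate together (7 shared numbers in each comparison, none with a correlation over 0.1), so the numbers were not used for pairing. Alternatives were edgeR's exact test, DESeq2 1.42.0, its size factors, other count limits, one fit over all embryos, sex as a covariate, thinned counts, a replicate block, leaving out each embryo, and leaving out 4 serum embryos. Gene sequences, gene lengths and coordinates were not used here, and the planned search of promoter motifs was not made.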

Additional observations from a re-analysis of the deposited data

Results flagged for a closer look

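Among 84 groups of 8 embryos checked (28 quantities in 3 cultures), 6 had a highest or lowest embryo set apart by a gap above Dixon's limit, and chance alone flags about 1 group in 20. The serum-free male C4 gave 5 of them. Its summed CPM was 10410 against 8705 in the next serum-free embryo, with 7505 against 6209 for the large subunit and 2835 against 2452 for the small subunit. In MRPL27 it had 170.0 CPM against 135 in the next embryo, and in MRPL51 270.3 CPM against 204. The serum-free male C7 had the lowest MRPS23 value, 188 CPM, where the next embryo had 233.0 CPM. Without C4 the log2 fold change of MRPL27, in vivo over serum-free, was -0.34. The median over members without C4 was -0.09 in that direction.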

How the results depend on the processing

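For in vivo against serum, 15 members passed, and this count moved by over 1.5 times under 3 settings: 8 passed with a limit of 1 count in any embryo, 4 with the label number as a replicate block, and 8 without the 4 serum embryos with the fewest genes detected (added after seeing the data). It was 11 to 17 when each embryo was left out. For in vivo against serum-free, 2 passed, but 5 by DESeq2, 1 with a limit of 1 count, 0 in one fit over all 24 embryos (12 at an unadjusted p under 0.05), 1 with the replicate block and 1 to 3 without each embryo. For serum-free against serum, 5 passed, but 1 with a limit of 1 count, 3 with 15 counts in every embryo, 3 with sex as a covariate, 0 with the replicate block (6 at an unadjusted p under 0.05), 1 without the 4 serum embryos and 1 to 6 without each embryo. The block used only embryos whose number occurs in both groups, and the numbers do not pair the embryos. In males against serum 13 passed, but 8 with a limit of 1 count and 4 to 16 without each embryo, the lowest without serum male B7. In females against serum 0 passed, 1 by DESeq2, and 0 to 2 without each embryo, the 2 without the serum female B2. In males against serum-free 0 passed, and 2 by the exact test and by DESeq2. Between in vivo males and females 0 passed, and 1 by DESeq2. In the main fits 28.3%, 5.82% and 16.3% of all genes tested passed in the 3 pooled comparisons, in the order above. The shares were 19.0% in males and 0.418% in females against serum, 1.76% in males against serum-free and 1.26% between the sexes in vivo. For most other settings the share of all genes is not given here. These counts therefore do not show whether the members moved more than all genes did. The cause of these shifts was not tested.

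No member that passed the adjusted p changed direction: of 570 values of such members under alternatives, 434 kept their side of the limit and 136 lost it. MRPL16, MRPL30, MRPL51 and MRPS31 passed against serum in all 10 alternative settings other than single embryos left out. The median of members, serum-free over serum, was -0.02 and became 0.01 with 15 counts in every embryo and 0.04 without the 4 serum embryos. Single embryos were libraries of low input, each amplified, so differences under 1.5-fold rest on small margins between embryos, and members of few counts (MRPL33, MRPL36, MRPL40, MRPS2) carry little weight.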
